A study of Mus musculus with 68 samples.

Results

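The genes described here encode the factors that start translation of an mRNA, together with the kinases and binding proteins that act on them. They were taken by name: every symbol that begins with Eif and a digit between 1 and 6, present in all 8 deposited tables, without Eif2s3y and Eif4e1b. This gave 53 of the 14055 genes that the 8 tables share, and 52 of the 53 reached 1 FPKM in at least 2 libraries of at least 1 table. FPKM scales the reads of a gene to its length and to the size of the library, so levels can be set side by side between genes. Eif2ak2 was the gene that reached this level in no table, and 46 genes reached it in every table. The choice used a minimum level and no difference between groups.

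The data come from mouse oocytes and embryos in which Ezhip, an X-linked gene for an inhibitor of the histone methyltransferase complex PRC2, had been deleted. The labels give the genotypes of oocytes as KO, Het and wild type (WT), and those of embryos as Ezhip mKO, Ezhip mHet and wild type; strain, promoter of any Cre and number of pooled cells are not stated in them. Oocytes labelled FGO gave 3 KO, 2 Het and 2 WT libraries. The stages PN5 (1-cell embryos), late 2-cell, a first E3.5 table, E6.5 extraembryonic ectoderm (ExE) and E6.5 epiblast had 2 mKO, 2 mHet and 2 WT libraries each. The 8-cell stage had 3 mKO, 1 mHet and 2 WT libraries, a second E3.5 table had 5 of each genotype, and E4.25 had 4 mKO, 1 mHet and 4 WT libraries. The E4.25 mHet library stands for a pair of deposited columns that were identical in all 19337 genes, which leaves 67 libraries. No source states that libraries of a group came from separate animals, so every p-value below measures the spread between these libraries, which may be technical.

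Initiation begins when eIF2, a trimer that binds GTP, brings the initiator tRNA to the small ribosomal subunit, where eIF1, eIF1A, eIF3 and eIF5 help it to scan the mRNA for a start codon. The mRNA is recruited through its 5′ cap by eIF4F, which joins the cap-binding protein eIF4E to the helicase eIF4A and the scaffold eIF4G, while 4E-BP proteins compete with eIF4G for eIF4E. eIF2 is recharged by the exchange factor eIF2B and is held back when a stress kinase phosphorylates its alpha subunit. Full-grown oocytes store much of their mRNA untranslated, and the embryo depends on this store until its own genome is activated, which in the mouse occurs mainly at the 2-cell stage.

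Upstream sequences are shown for 3 genes whose levels the results below turn on: Eif1ax and Eif1b, which differed between the E6.5 tissues, and Eif4e, which encodes the cap-binding protein. RefSeq gave the 250 bases before a transcription start for 42 of the 53 genes (assembly GRCm38.p6). Capitals mark 2 motifs read on both strands, CACGTG, the E-box that Myc-type factors bind, and CCGGAAG, an ETS-type core. CACGTG stood in 9 of the 42 genes (21.4%), against 6.86% of all 27025 genes with such a window and 10.4% of the 7921 that reached the minimum level at E6.5. CCGGAAG stood in 12 of the 42 (28.6%), against 7.83% of all genes and 17.5% of those at E6.5. The windows lie on the plus strand at chrX:159371928-159372177 for Eif1ax and at chr9:120492356-120492605 for Eif1b. For Eif4e, the window at chr3:138527018-138527267 is shown, and its other listed window, at chr3:138525941-138526190, held neither motif. A match describes these letters and is not evidence of a bound factor.
Eif1ax: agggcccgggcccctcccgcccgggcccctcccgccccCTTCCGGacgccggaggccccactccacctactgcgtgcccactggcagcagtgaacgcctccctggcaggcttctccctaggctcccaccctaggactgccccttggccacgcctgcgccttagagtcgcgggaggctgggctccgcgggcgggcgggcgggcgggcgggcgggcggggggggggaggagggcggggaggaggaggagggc
Eif1b: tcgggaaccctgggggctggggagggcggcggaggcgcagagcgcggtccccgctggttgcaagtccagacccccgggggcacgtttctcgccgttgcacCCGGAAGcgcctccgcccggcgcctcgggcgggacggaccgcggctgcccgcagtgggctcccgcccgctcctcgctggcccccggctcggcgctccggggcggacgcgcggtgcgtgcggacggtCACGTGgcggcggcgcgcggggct
Eif4e: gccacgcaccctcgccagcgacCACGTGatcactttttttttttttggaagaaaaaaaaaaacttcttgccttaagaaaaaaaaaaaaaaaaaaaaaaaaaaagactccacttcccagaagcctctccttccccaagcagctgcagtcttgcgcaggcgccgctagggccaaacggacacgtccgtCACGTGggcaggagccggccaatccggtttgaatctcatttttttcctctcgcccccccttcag

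Ezhip itself checked the labels where WT libraries expressed it. It had 0, 0.175 and 0.117 FPKM in KO oocytes, 143 and 84.1 FPKM in Het oocytes, and 546 and 297 FPKM in WT oocytes. At PN5 it had 0.933 and 0.124 FPKM in mKO embryos, against 251 and 368 FPKM in WT embryos, and at the late 2-cell stage 0 and 0.585 FPKM in mKO embryos, against 15.9 and 15.7 FPKM in WT embryos. From the 8-cell stage on no WT library exceeded 1.5 FPKM, so Ezhip cannot check the later labels. The 6 oocyte markers summed to 6060 to 14000 FPKM in KO oocytes and 6600 to 13700 FPKM in WT oocytes, and the 6 ExE markers to 254 to 351 FPKM in mKO ExE, 235 to 291 FPKM in mHet ExE and 263 to 299 FPKM in WT ExE. Some epiblast markers were present in ExE libraries too, as given beside the tissue comparison. Tables were normalized separately, so levels across stages are described without a test. The precursor of ribosomal RNA, Rn45s, held up to 1.47% of summed FPKM in oocyte libraries, 11.7% to 68.6% at E4.25 and 9.19% to 69.5% in the later of the E3.5 tables, and a larger share lowers every other FPKM in that library.

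By FPKM, the initiation factor genes as a group were lowest in WT embryos at E4.25 and highest at E6.5, while by rank within the library they were lowest at PN5. The median over the 53 genes was 24.3 FPKM in FGO, 17.3 at PN5, 39.9 in late 2-cell embryos, 75.9 at the 8-cell stage, 32.6 and 11.8 in the first and second E3.5 tables, 6.78 at E4.25, 89.0 in ExE and 83.9 in epiblast. Of the 53 genes, 29 had their lowest WT mean at E4.25 and 13 at PN5, while 15 had their highest in ExE, 13 in epiblast and 9 at the 8-cell stage. Ranks within a library were taken among the 14055 genes that the 8 tables share. The median initiation factor gene stood at percentile 81.2 at PN5, 86.4 in FGO and 87.0 at E4.25, and at 89.9 to 94.0 in the other WT groups. By percentile, 16 genes were lowest at PN5, 15 at E4.25 and 14 in FGO, and 11 were highest in epiblast and 10 in ExE. With Rn45s removed and the rest rescaled, the E4.25 median was 11.8 FPKM. The pair of E3.5 tables shows how far tables of 1 stage can differ, since 51 of 53 genes had a lower WT mean in the second, with a median log2 difference of -1.28.

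**Figure D1:**
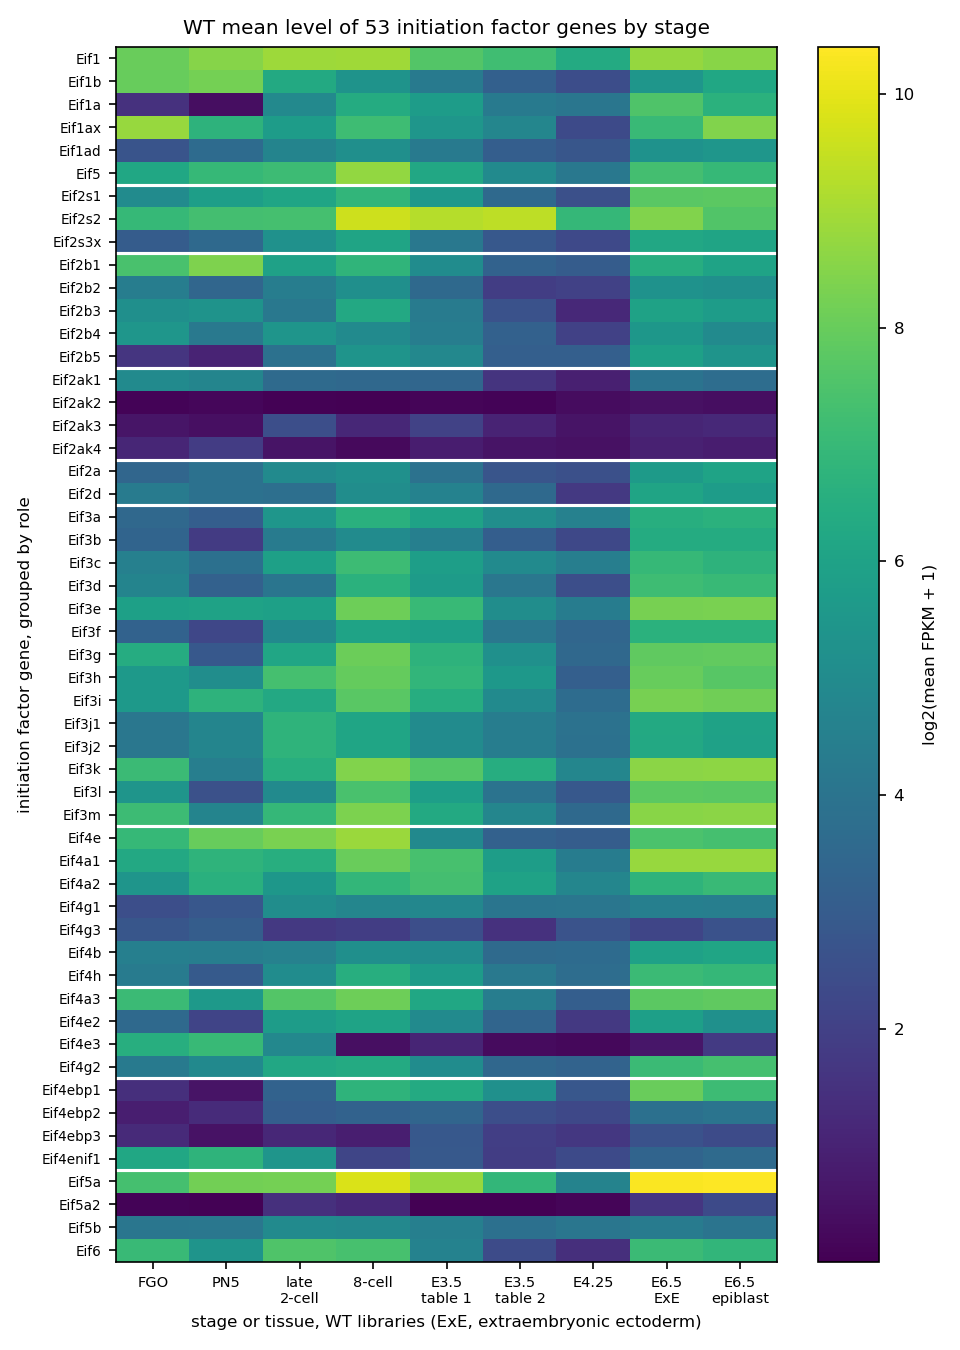
WT mean FPKM of each of 53 initiation factor genes (rows, white lines between role groups) in 9 stages or tissues (columns), coloured by log2(mean FPKM + 1). Most rows are darkest at PN5 or E4.25, Eif2s2 stays bright at E3.5, and Eif4e3 and Eif4enif1 are bright only up to the late 2-cell stage.

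The start-codon factors included a pair whose ratio differed widely between stages. Eif1ax, the X-linked gene for eIF1A, had 526 and 354 FPKM in WT oocytes, 97.6 and 111 FPKM at PN5 and 47.6 and 57.0 FPKM in late 2-cell embryos. Eif1a, its autosomal counterpart, had 0.419 and 3.21 FPKM in WT oocytes, 0.279 and 0.365 FPKM at PN5 and 35.7 and 22.6 FPKM in late 2-cell embryos. The log2 ratio of Eif1a over Eif1ax was thus -7.47 ± 1.51 in oocytes, -6.31 ± 0.061 at PN5 and -0.85 ± 0.63 at the late 2-cell stage (SD, n = 2 each). It was also negative at the 8-cell stage (-0.78 ± 0.345) and in epiblast (-1.76 ± 0.16), and positive in the first E3.5 table (0.47 ± 0.42) and in ExE (0.51 ± 0.063; SD, n = 2 each). In the second E3.5 table it was -0.18 ± 0.87 (SD, n = 5) and ran between -1.39 and 1.05, so the order of the genes at E3.5 differed between libraries and between tables. At E4.25 it was 1.32 ± 1.25 (SD, n = 4). How reads shared between such paralogs were assigned is not stated, so the split between them is uncertain.

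Eif1b followed another course beside Eif1, the main gene for eIF1. Eif1b had 273 and 237 FPKM in WT oocytes and 279 and 319 FPKM at PN5, close to Eif1 with 315 and 204 FPKM in oocytes and 348 and 378 FPKM at PN5. At the 8-cell stage Eif1b had 29.0 and 50.8 FPKM, while Eif1 had 508 and 448 FPKM. Eif1b stayed below Eif1 in every later WT library, with log2 ratios between -4.71 and -1.89 from the 8-cell stage on. Eif5, whose product activates the GTPase of eIF2, averaged 72.3 FPKM in oocytes and 418 FPKM at the 8-cell stage. Eif1ad, which carries an eIF1A domain, was the lowest of this role over the stages and ranged between 5.59 FPKM in oocytes and 43.0 FPKM in epiblast.

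**Figure D2:**
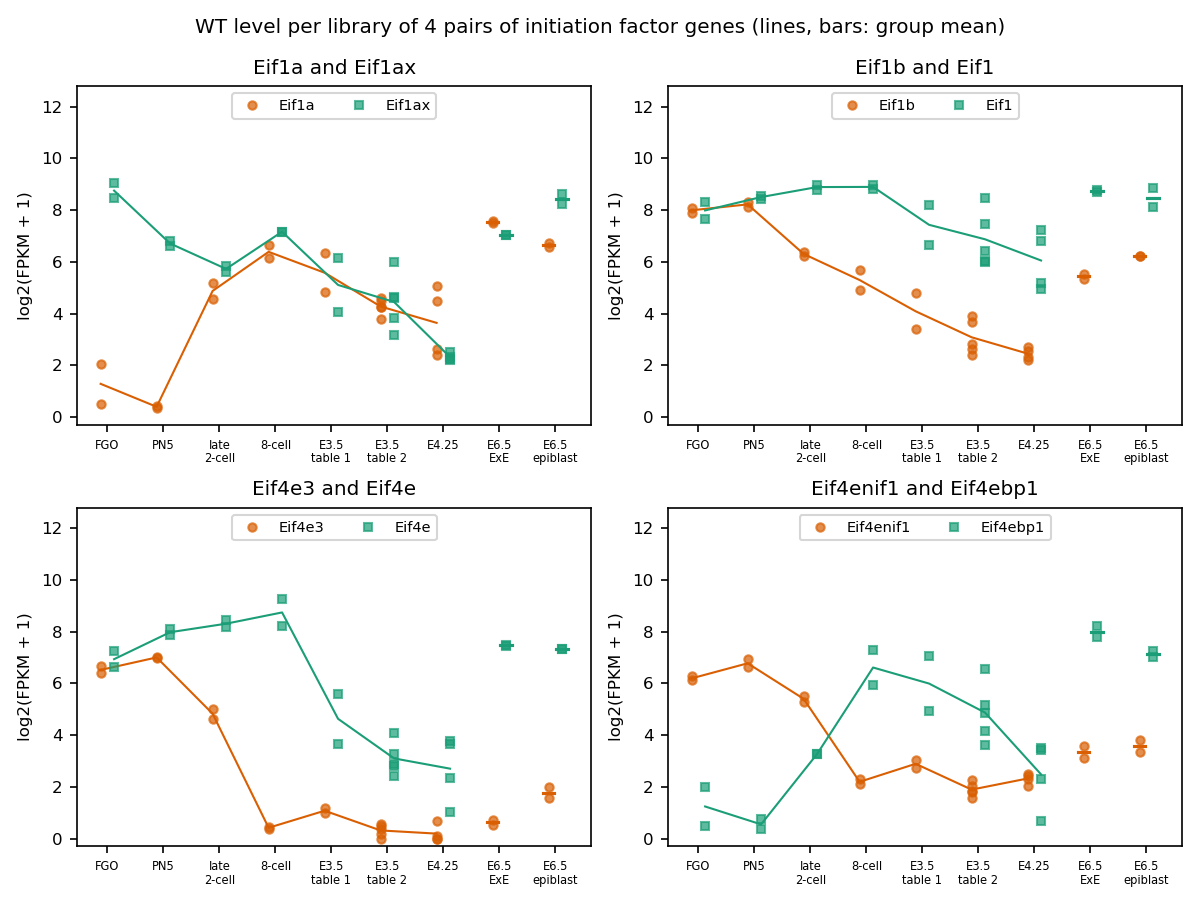
Level of 4 pairs of genes in each WT library, as log2(FPKM + 1), by stage or tissue; lines and bars mark group means, and the pairs were chosen after their values were seen. Eif1a is far below Eif1ax in FGO and at PN5 and nearer to it from the late 2-cell stage on. Eif4e3 and Eif4enif1 are lower at the late 2-cell stage than at PN5 and lower again at the 8-cell stage. Eif4ebp1 climbs to 60.3 and 156 FPKM at the 8-cell stage.

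The subunits of eIF2 did not keep a fixed ratio. Eif2s2, the beta subunit, averaged 776 FPKM in 8-cell embryos and 658 FPKM in the second E3.5 table, where Eif2s1, the alpha subunit that stress kinases phosphorylate, averaged 114 and 10.8 FPKM. In that E3.5 table Eif2s2 had 389 FPKM in the lowest and 1005 FPKM in the highest of 5 WT libraries, while Eif2s1 had 6.01 to 23.1 FPKM. The log2 ratio of Eif2s2 over Eif2s1 was 5.88 ± 0.455 there (SD, n = 5), against 0.71 ± 0.13 in ExE and -0.20 ± 0.098 in epiblast (SD, n = 2 each). In the first E3.5 table the ratio was 4.12 ± 1.48 (SD, n = 2), with Eif2s1 at 13.2 and 83.7 FPKM. At E4.25 it was 4.01 ± 1.38 (SD, n = 4). Eif2s3x, the X-linked gamma subunit, averaged between 3.87 FPKM at E4.25 and 75.4 FPKM in ExE. Whether reads of Eif2s2 are shared with copies elsewhere in the genome was not tested.

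Of the 5 subunits of eIF2B, Eif2b1 (alpha) was the highest over the stages and peaked at PN5 with 335 FPKM. The other subunits averaged between 1.05 FPKM for Eif2b5, the catalytic epsilon subunit, and 39.4 FPKM for Eif2b3 at PN5. Eif2b5 averaged 41.2 FPKM at the 8-cell stage and 59.8 FPKM in ExE. Among the kinases of eIF2 alpha, Eif2ak1 (HRI, which senses haem) was the highest, with 30.3 FPKM in oocytes and 0.873 FPKM at E4.25. Eif2ak3 (PERK, the kinase of the endoplasmic reticulum) peaked at 4.69 FPKM in late 2-cell embryos and Eif2ak4 (GCN2, which senses uncharged tRNA) at 2.66 FPKM at PN5. Eif2ak2 (PKR, which senses double-stranded RNA) averaged at most 0.379 FPKM in any WT group. At the minimum level, Eif2ak4 was just inside at E6.5 with 1.10 FPKM in its second-highest library and Eif2ak2 just outside with 0.933 FPKM.

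Among the subunits of eIF3, the scaffold on the small ribosomal subunit, 10 of 14 genes had a lower WT mean at PN5 than in oocytes, and all 14 had a higher mean at the 8-cell stage than at PN5. Their summed FPKM averaged 671 ± 225 in WT oocytes, 346 ± 0.962 at PN5, 990 ± 40.7 in late 2-cell embryos and 2420 ± 574 at the 8-cell stage (SD, n = 2 each). Eif3g had 56.3 and 116 FPKM in oocytes, 6.57 and 6.10 FPKM at PN5, 60.0 and 79.2 FPKM at the late 2-cell stage and 198 and 340 FPKM at the 8-cell stage. Eif3l had 22.2 and 61.7 FPKM in oocytes and 4.09 and 5.81 FPKM at PN5, and Eif3m had 124 and 155 FPKM in oocytes and 22.5 and 28.0 FPKM at PN5. In each of these 3 genes both PN5 libraries lay below both oocyte libraries. Eif3e, Eif3i, Eif3j1 and Eif3j2 had higher means at PN5 than in oocytes; Eif3i had 38.7 and 59.6 FPKM in oocytes and 111 and 99.3 FPKM at PN5. At E6.5 the eIF3 genes made up 35.1% of the summed FPKM of the 53 genes in ExE and 35.4% in epiblast. Eif3j1 and Eif3j2, near-identical copies of the loosely bound subunit, agreed within a ratio of 1.02 in all 67 libraries, so their split is uncertain and they are in effect 1 measurement.

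The cap-binding genes changed over between oocyte and blastocyst. Eif4e, which encodes the main cap-binding protein, had 97.2 and 152 FPKM in WT oocytes, 297 and 617 FPKM at the 8-cell stage, and 4.43 to 16.2 FPKM over the 5 WT libraries of the second E3.5 table. Eif4e3, a paralog with an atypical cap pocket, had 82.7 and 99.9 FPKM in oocytes, 127 and 128 FPKM at PN5, 23.8 and 31.6 FPKM in late 2-cell embryos and 0.307 and 0.374 FPKM at the 8-cell stage. Eif4e2 (4EHP, a repressive cap binder) averaged 10.9 FPKM in oocytes, 3.45 FPKM at PN5 and 65.4 FPKM at the 8-cell stage. In the second E3.5 table the log2 ratio of Eif4e2 over Eif4e was -0.035 ± 0.675 (SD, n = 5), so these genes were not separated there beyond the spread.

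Among the binding partners of eIF4E, Eif4enif1 (4E-T, which holds eIF4E in stored and repressed mRNA) had 68.5 and 76.5 FPKM in WT oocytes, 97.6 and 121 FPKM at PN5 and 3.27 and 3.93 FPKM at the 8-cell stage. Eif4ebp1, the mTOR-regulated 4E-BP1, had 0.414 and 2.98 FPKM in oocytes, 8.66 and 8.67 FPKM in late 2-cell embryos and 60.3 and 156 FPKM at the 8-cell stage. The log2 ratio of Eif4ebp1 over Eif4enif1 was -6.22 ± 0.057 at PN5 and 4.42 ± 0.813 at the 8-cell stage (SD, n = 2 each). Eif4ebp2 averaged at most 15.0 FPKM, in epiblast, and Eif4ebp3 at most 6.42 FPKM, in the first E3.5 table.

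Of the helicase and scaffold genes, Eif4a1 averaged 440 FPKM in ExE and 439 FPKM in epiblast, above its paralog Eif4a2 with 109 and 133 FPKM in these tissues. In the second E3.5 table the log2 ratio of Eif4a2 over Eif4a1 was 0.32 ± 0.51 (SD, n = 5), so the pair was not separated there beyond the spread. Eif4g1, the main scaffold, averaged 4.69 FPKM in oocytes and 33.5 FPKM in late 2-cell embryos, while Eif4g3 averaged 5.89 and 2.37 FPKM. Eif4a3, the helicase of the exon junction complex, and Eif4g2 (DAP5, a scaffold without the eIF4E site) peaked at 272 FPKM at the 8-cell stage and 161 FPKM in epiblast. Eif4h, a helicase cofactor, averaged 6.73 FPKM at PN5 and 134 FPKM in ExE.

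Eif5a, whose product carries the hypusine residue and acts in elongation and termination as well, was the highest of the genes at E6.5, averaging 1300 FPKM in ExE and 1350 FPKM in epiblast. Its paralog Eif5a2 averaged 2.11 FPKM in ExE and 4.13 FPKM in epiblast. Eif6, which keeps the large ribosomal subunit from joining too early, averaged 185 FPKM in late 2-cell embryos and 1.69 FPKM at E4.25. Eif5b, the GTPase of subunit joining, varied least of the 53, between 13.5 FPKM in the second E3.5 table and 30.9 FPKM in late 2-cell embryos.

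Deletion of Ezhip was then set against WT within each table, to ask whether initiation factor genes changed with genotype. A gene counts as called when limma on log2(FPKM + 1) gave an adjusted p under 0.05 over all genes kept in the table. Every log2 change below is on that scale, which understates the change of low genes. No initiation factor gene was called in 17 of the 19 comparisons, and the exceptions were E4.25 mKO against WT and ExE against epiblast. In bulk libraries, fewer cells of a type and less RNA per cell cannot be told apart.

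In oocytes, limma called 0 of 51 genes in KO against WT, where 0.0102% of all genes kept were called, and 0 of 51 in Het against WT, where 0% were; none had an unadjusted p under 0.05 in either. The median log2 change was -0.00455 in KO oocytes and 0.00558 in Het oocytes, beside -0.0486 and 0.0119 over all genes. The labels give 2 runs of library names, with KO libraries 1 and 2, Het library 1 and WT library 1 in run 1. The median initiation factor gene had 16.3 FPKM in the WT library of run 1 and 32.2 FPKM in that of run 2. The KO median log2 change was 0.199 within run 1 (0.189 over all genes) and -0.0338 within run 2 (-0.0593 over all genes). Each run holds 1 WT library. Eif4ebp3, a minor 4E-BP gene, had the smallest p in KO oocytes, with 0.172, 0 and 1.24 FPKM in KO against 0.821 and 1.93 FPKM in WT. These groups overlapped, and the log2 change of -0.74 ± 0.54 (SE) had an adjusted p of 1 in limma. In Het oocytes Eif2ak4 had 0.742 and 6.63 FPKM, against 0.559 and 1.80 FPKM in WT oocytes, so 1 Het library alone was high. That library and the higher WT library were both of run 2.

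At PN5, limma called 0 of 48 genes in mKO against WT (0.0116% of all genes called), and 3 had an unadjusted p under 0.05. Eif4ebp1 had 1.55 and 2.02 FPKM in mKO embryos, against 0.283 and 0.680 FPKM in WT embryos, a log2 change of 0.92 ± 0.25 (SE; adjusted p of 1 in limma). It was below 1 FPKM in every mHet and WT library and passed the minimum level through mKO alone. Eif4h had 2.33 and 4.40 FPKM in mKO against 5.04 and 8.43 FPKM in WT, and Eif3f, an eIF3 subunit, 1.36 and 2.27 FPKM in mKO against 2.76 and 4.62 FPKM in WT. Neither pair of groups overlapped and neither gene was called. In mHet against WT, 0 of 48 genes were called (0% of all genes) and 0 had an unadjusted p under 0.05.

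In late 2-cell embryos, limma called 0 of 51 genes in mKO against WT (0.00969% of all genes called), and 2 had an unadjusted p under 0.05. Eif3e, an eIF3 subunit, had 21.4 and 42.8 FPKM in mKO embryos, against 61.7 and 57.5 FPKM in WT embryos, a log2 change of -0.95 ± 0.32 (SE; adjusted p = 0.538 in limma). Eif2b2, an eIF2B subunit, had 12.5 and 12.4 FPKM in mKO against 17.8 and 23.3 FPKM in WT. The mKO libraries were lower in both genes without overlap, and 36 of the 51 means were lower in mKO, with a median log2 of -0.16 beside -0.072 over all genes. In mHet against WT, 0 of 51 genes were called (0% of all genes) and 0 had an unadjusted p under 0.05, while 35 means were higher in mHet.

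At the 8-cell stage, limma called 0 of 50 genes in mKO against WT (0.012% of all genes called), and 1 had an unadjusted p under 0.05. This was Eif4ebp1, with 27.5, 22.0 and 85.6 FPKM in mKO embryos, 38.2 FPKM in the mHet library and 60.3 and 156 FPKM in WT embryos. The mKO and WT groups overlapped, and the log2 change of -1.35 ± 0.56 (SE) had an adjusted p of 0.999. Within each of the 2 runs of library names that the labels give, mKO was below WT: 27.5 and 22.0 FPKM against 60.3 FPKM in run 1, and 85.6 FPKM against 156 FPKM in run 2. With the run as a term the log2 change was -1.09 and was not called (adjusted p = 0.224). Of the 13 alternatives, 1 called it, and their adjusted p ran between 0.000125 and 1. Eif1ax had 95.9, 100.4 and 116 FPKM in mKO against 142 and 143 FPKM in WT, without overlap, at a log2 change of -0.46 ± 0.30 (SE) and an adjusted p of 0.999.

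At E3.5, the first table had 43 of 49 means higher in mKO than in WT and 43 of 49 higher in mHet than in WT, but limma called none in either (0.0407% and 0% of all genes called). In mKO 0 genes and in mHet 1 gene had an unadjusted p under 0.05. The median log2 change was 0.62 in mKO and 1.18 in mHet, beside 0.22 and 0.43 over all genes kept. Eif2s3x had 30.0 and 47.7 FPKM in mKO embryos, against 7.44 and 26.2 FPKM in WT embryos, and Eif2b4, the delta subunit of eIF2B, 52.9 and 72.1 FPKM in mHet against 8.90 and 32.0 FPKM in WT. WT library 1 was the lower of the WT pair in each. Rn45s took 21.0% of FPKM in that library and 3.66% in WT library 2. Over the 11 alternatives, the log2 change of Eif2b4 in mHet against WT ran between 0.9271 and 2.664. The summed Y-linked transcripts were at most 0.151 FPKM in mKO libraries and 45.0 and 59.7 FPKM in WT libraries, so sex and genotype cannot be told apart in mKO against WT. The mHet libraries had 43.5 and 84.7 FPKM of them.

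In the second E3.5 table, with 5 libraries per genotype, limma called 0 of 49 genes in mKO against WT (0.0539% of all genes called) and 0 in mHet against WT (0% of all genes), and 0 had an unadjusted p under 0.05 in either. In mKO 24 means were higher and 25 lower, with a median log2 of -0.011, while in mHet 41 were higher, with a median of 0.28 beside 0.14 over all genes. Eif4a2 had 19.4 to 64.3 FPKM in mKO embryos and 54.1 to 74.4 FPKM in WT embryos, with overlap, at a log2 change of -0.54 ± 0.39 (SE; adjusted p of 1 in limma). Its lowest value was in mKO library 4, in which Rn45s took 69.5% of FPKM.

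**Figure D3:**
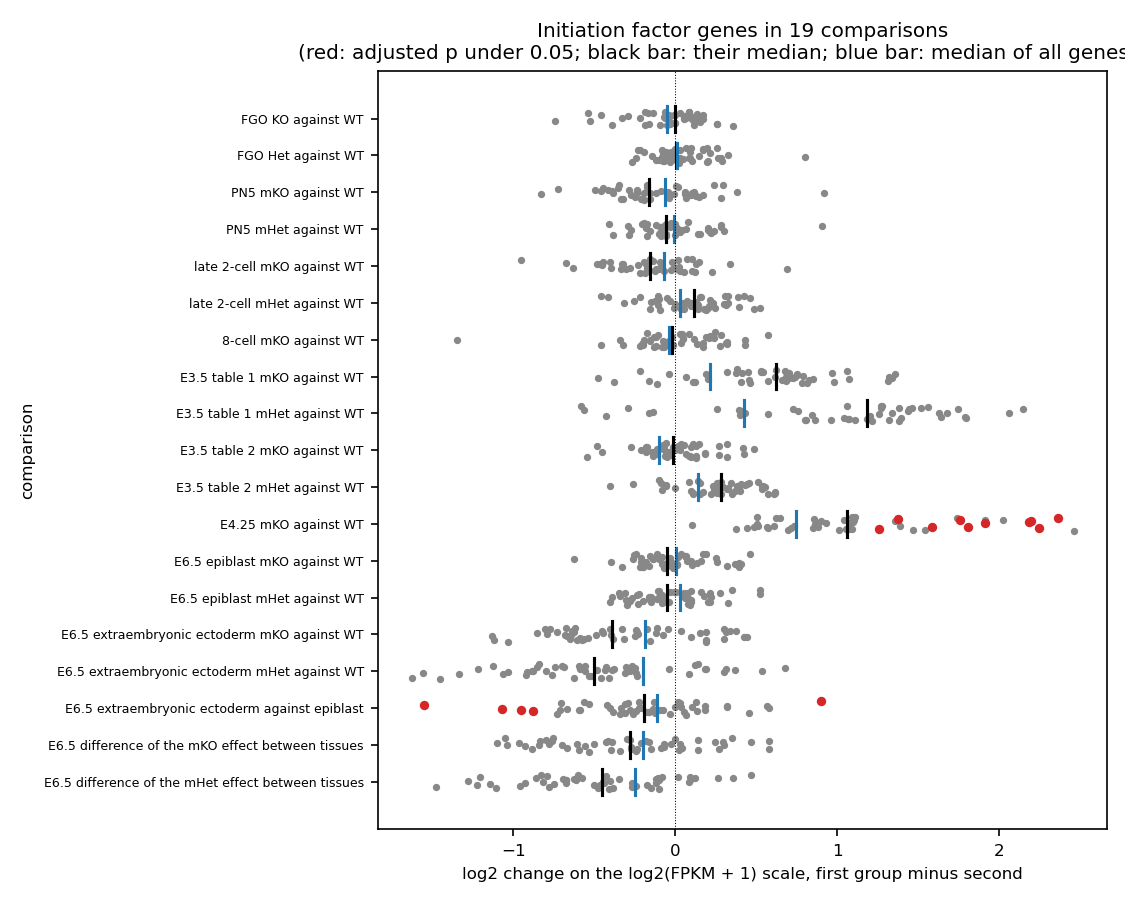
Log2 change of each initiation factor gene (points) in 19 comparisons, first group minus second, with the median of these genes (black bar) and of all genes kept (blue bar); red points had an adjusted p under 0.05. Red points appear in E4.25 mKO against WT, all to the right, and in ExE against epiblast, 4 to the left and 1 to the right.

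At E4.25, limma called 10 of 50 initiation factor genes higher in mKO than in WT and none lower, where 14.6% of all 9550 genes kept were called, 14.3% higher and 0.251% lower. One of the 10, Eif2ak3, was below 1 FPKM in every WT library and was tested only because mKO was high, so its call is not read as support. A further 9 had an unadjusted p under 0.05 alone, so that 19 did in all. The mean was higher in mKO for all 50 genes, but the whole table leaned the same way: 86.2% of all genes had a higher mean in mKO, and the median log2 change was 1.06 over the initiation factor genes and 0.745 over all genes. By role, the other genes that rose were 4 of 14 eIF3 subunits (Eif3b, Eif3d, Eif3g and Eif3h), the eIF2 alpha kinase Eif2ak1, 1 of 5 eIF2B subunits (Eif2b4), the helicase gene Eif4a2, the 4EHP gene Eif4e2, and Eif5a.

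Eif3d, a subunit that can itself bind the cap of some mRNAs, had 24.9, 19.8, 12.5 and 42.2 FPKM in mKO embryos, against 5.52, 7.21, 0.988 and 4.81 FPKM in WT embryos, and rose by 2.25 ± 0.60 on the log2 scale (SE; adjusted p = 0.0238 in limma). Every mKO library lay above every WT library. Eif4a2 had 117, 166, 107 and 96.6 FPKM in mKO against 35.3, 19.7, 17.9 and 33.1 FPKM in WT, also without overlap, at a log2 change of 2.18 ± 0.67 (SE; adjusted p = 0.041). Eif5a had 86.7, 189, 49.7 and 112 FPKM in mKO against 54.1, 20.9, 5.95 and 15.0 FPKM in WT, at 2.37 ± 0.77 (SE; adjusted p = 0.0493). Its groups overlapped, since WT library 1 was above mKO library 3.

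Eif2ak1 had 4.56, 3.54, 2.23 and 5.49 FPKM in mKO embryos, against 0.784, 0.427, 1.23 and 1.05 FPKM in WT embryos, and rose by 1.38 ± 0.38 on the log2 scale (SE; adjusted p = 0.028 in limma), without overlap. Eif2ak3 had 2.38, 4.36, 1.47 and 2.22 FPKM in mKO against 0.794, 0.766, 0 and 0.381 FPKM in WT. With no filter on low values Eif2ak3 was not called, nor were most of the other genes that rose here. The other genes that rose had log2 changes of 2.2 (Eif3g), 1.91 (Eif3h), 1.81 (Eif2b4), 1.76 (Eif3b) and 1.59 (Eif4e2), with Eif3h at the threshold. The largest change of all, 2.46 ± 1.01 (SE) for Eif2s2, had an adjusted p of 0.0995, with 423, 424, 247 and 661 FPKM in mKO and 173, 187, 6.93 and 122 FPKM in WT. At the other end, Eif4g3 changed by 0.10 ± 0.50 and Eif5b by 0.44 ± 0.61 (SE).

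The size of the rise depended on the scaling, and the Rn45s share differed between libraries. Rn45s took 24.2%, 11.7%, 52.4% and 26.6% of FPKM in mKO libraries 1 to 4, 53.2% in the mHet library, and 21.0%, 38.6%, 68.6% and 60.5% in WT libraries 1 to 4. The 53 genes together took 0.869%, 0.939%, 0.681% and 1.09% in mKO, 0.501% in mHet, and 0.837%, 0.716%, 0.162% and 0.317% in WT. These totals include Rn45s. Without it the shares were 1.15%, 1.06%, 1.43% and 1.48% in mKO, 1.07% in mHet, and 1.06%, 1.17%, 0.516% and 0.803% in WT. With Rn45s removed and the rest rescaled, limma called 0 of 51 initiation factor genes, while 240 of all genes kept were called. The median log2 was then 0.673, beside 0.441 over all genes. With median ratio scaling it called 0 of 49, with 31 means higher in mKO, while 30 of all genes were called. The median was then 0.144, beside 0.0566 over all genes. All calls of initiation factor genes were lost as well without mKO library 1, 2 or 4. Leaving out WT library 2, 3 and 4 in turn left 2, 3 and 4 initiation factor genes called. Without WT libraries 3 and 4 together 2 genes were called, at a median of 0.351. The labels give libraries 1 and 2 of each genotype and libraries 3 and 4 separate runs of library names: within libraries 1 and 2 the median was 0.733 (0.744 over all genes), and within libraries 3 and 4 it was 1.5 (0.761 over all genes). The 6 markers of the 8-cell to blastocyst stages summed to 269 to 995 FPKM in mKO libraries and 36.2 to 184 FPKM in WT libraries, without overlap. Other marker lists overlapped and mostly ranged wider in WT: ExE markers summed to 30.4 to 68.2 FPKM in mKO and 1.09 to 178 FPKM in WT, epiblast markers to 25.6 to 93.4 FPKM in mKO and 4.67 to 39.5 FPKM in WT, and visceral endoderm markers to 0.799 to 4.05 FPKM in mKO and 0.188 to 14.8 FPKM in WT. Markers of decidua and blood summed to at most 0.123 FPKM in mKO and 9.32 FPKM in WT, and those of follicle cells to at most 0.998 FPKM in mKO and 4.43 FPKM in WT. The part of Rn45s, of library quality and of cell makeup in the result was not tested.

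**Figure D4:**
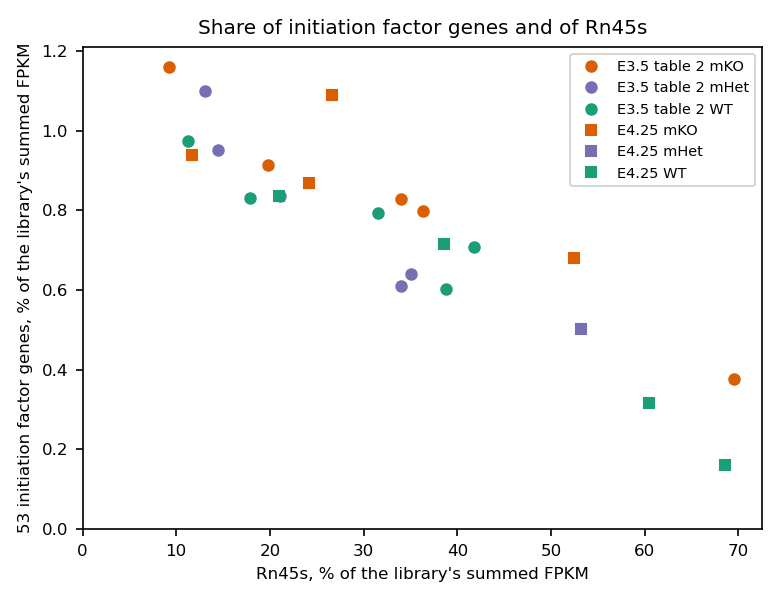
Share of each library's summed FPKM held by the 53 initiation factor genes (vertical axis, %) against the share held by Rn45s (horizontal axis, %), for the 15 libraries of the second E3.5 table and the 9 of E4.25, coloured by genotype. WT libraries 3 and 4 of E4.25, at 68.6% and 60.5% Rn45s, hold the smallest shares of initiation factor genes, 0.162% and 0.317%. The summed FPKM includes Rn45s, and without it these libraries hold 0.516% and 0.803%.

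Of 45 genes that work with the initiation factors (elongation and termination, poly(A) binding, mTOR signalling, the stress response to eIF2 phosphorylation, hypusination), 40 were kept at E4.25 and 4 rose in mKO against WT, where 14.3% of all genes were called higher. They were Rps6kb2, an S6 kinase (log2 change 2.97), Paip2b, an inhibitor of poly(A) binding protein (2.06), Mcts2 (1.91) and Tsc2, a brake on mTOR (1.38). The median log2 change of the 40 was 0.813, beside 0.745 over all genes. None of these genes was called in any other genotype comparison.

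At E6.5, no initiation factor gene passed the test between genotypes in either tissue. In ExE, limma called 0 of 52 in mKO against WT and 0 of 52 in mHet against WT (0% of all genes in both), with 0 and 2 at an unadjusted p under 0.05. The means leaned lower, 39 of 52 in mKO and 42 of 52 in mHet, with median log2 changes of -0.393 and -0.502 beside -0.188 and -0.199 over all genes. Eif4h had 75.5 and 91.9 FPKM in mKO ExE, against 138 and 130 FPKM in WT ExE, without overlap (adjusted p = 0.69 in limma). Eif6 had 117 and 17.1 FPKM in mHet ExE, against 127 and 144 FPKM in WT ExE, so mHet library 2 alone was far below. That library held 11.6% Rn45s, and its 53 genes took 1.05% of FPKM, against 1.98% in mHet library 1. Over the 10 alternatives of this comparison, the log2 change of Eif6 ran between -2.915 and -0.2087. Without mHet library 1, library 2 is the only mHet ExE library, so no calls are counted there.

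In epiblast, limma called 0 of 52 genes in mKO against WT (0.00907% of all genes called) and 0 of 52 in mHet against WT (0.0272%), and none had an unadjusted p under 0.05. Eif4ebp1 had 186 and 198 FPKM in mKO epiblast, 226 and 178 FPKM in mHet epiblast and 128 and 151 FPKM in WT epiblast. Both mutant groups lay above WT without overlap, at log2 changes of 0.46 ± 0.36 and 0.52 ± 0.36 (SE), each with an adjusted p of 1 in limma; the 2 comparisons share their WT libraries. The difference of the genotype effect between the tissues was called for 0 of 52 genes in mKO and 0 of 52 in mHet (0% of all genes in both), and 0 had an unadjusted p under 0.05. Its smallest adjusted p was 0.972 in mKO and 0.998 in mHet.

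The tissues themselves differed in 5 of 52 initiation factor genes when the 6 ExE libraries were set against the 6 epiblast libraries, where 33.5% of all 11028 genes kept were called, 14.2% higher and 19.4% lower. Eif2s2 rose in ExE, and Eif1ax, Eif1b, Eif4e3 and Eif5a2 fell. The other 47 genes were not called, 4 of them with an unadjusted p under 0.05: Eif2a, Eif3b, Eif4ebp1 and Eif5b. The median log2 difference was -0.193 over the 52 genes and -0.111 over all genes, and none of the 14 eIF3 genes was called.

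Eif1ax had 109, 97.5, 146, 52.9, 130 and 130 FPKM in ExE (mKO, mHet, then WT libraries), against 290, 287, 304, 311, 391 and 299 FPKM in epiblast. Every ExE library lay below every epiblast library, and Eif1ax fell by 1.55 ± 0.25 on the log2 scale (SE; adjusted p = 0.000353 in limma). Its counterpart Eif1a was not called. Eif1b averaged 35.6 ± 5.96 FPKM in ExE and 70.1 ± 13.3 FPKM in epiblast (SD, n = 6 each) and fell by 0.95 ± 0.19 (SE; adjusted p = 0.00187). These are the genes whose upstream windows are printed above, with 1 ETS-type match for Eif1ax and 1 match to each motif for Eif1b.

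Eif2s2 averaged 360 ± 82.9 FPKM in ExE and 189 ± 27.5 FPKM in epiblast (SD, n = 6 each), a rise of 0.90 ± 0.21 on the log2 scale (SE; adjusted p = 0.0048 in limma). Its groups overlapped, since mHet ExE library 2 had 218 FPKM and an mKO epiblast library had 233 FPKM. Eif5a2 averaged 1.55 ± 0.731 FPKM in ExE and 4.24 ± 0.942 FPKM in epiblast (SD, n = 6 each) and fell by 1.07 ± 0.21 (SE; adjusted p = 0.00149). Eif4e3 averaged 0.938 ± 0.517 FPKM in ExE and 2.49 ± 0.513 FPKM in epiblast (SD, n = 6 each) and fell by 0.88 ± 0.18 (SE; adjusted p = 0.00239), at levels far under the 82.7 and 99.9 FPKM of WT oocytes. Neither gene had overlapping groups.

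**Figure D5:**
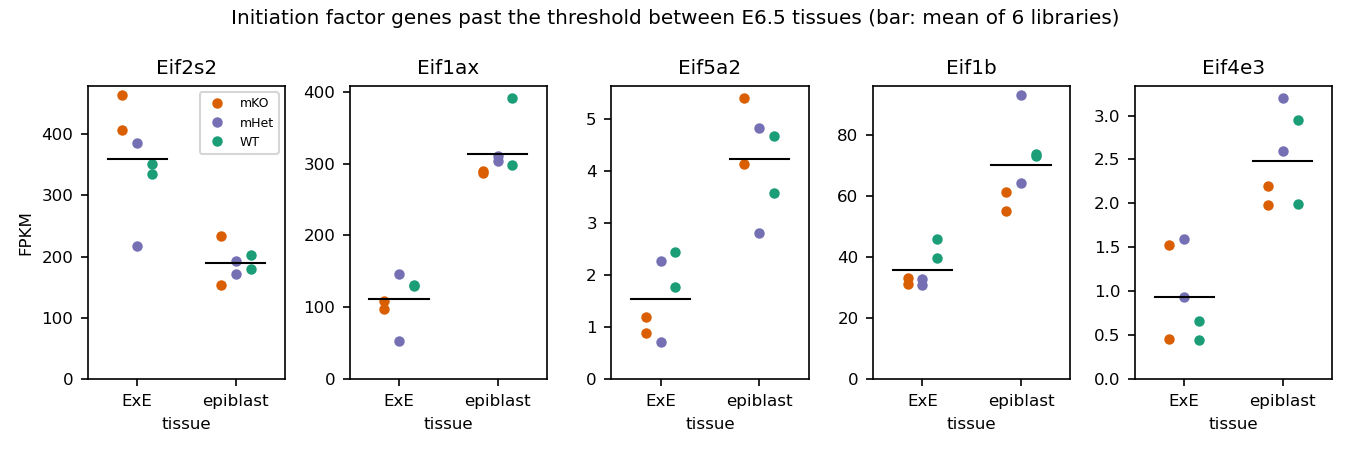
FPKM of the 5 initiation factor genes called between the E6.5 tissues in each ExE and epiblast library, coloured by genotype; bars are means of 6 libraries. Only Eif2s2 is higher in ExE, and it is the only one of the 5 whose groups overlap.

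Each of the 5 calls held under all 18 alternatives of this comparison. Other genes joined them under some. With median ratio scaling limma called 11 of 53, 5 higher and 6 lower, while 4275 of all genes were called, 2006 of them higher. Without mHet ExE library 1, which leaves library 2 with its 11.6% Rn45s, more initiation factor genes were called. The same held without mHet ExE library 2. For neither was the share of all genes called recorded. Among the partner genes 44 were kept, of which 4 rose and 4 fell in ExE, where 14.2% of all genes were called higher and 19.4% lower. Their median log2 difference was -0.0894, beside -0.111 over all genes. Pdcd4, an inhibitor of eIF4A, fell by 2.34 ± 0.29 on the log2 scale (SE; adjusted p = 4.78e-05 in limma), with means of 1.44 FPKM in ExE and 12.4 FPKM in epiblast. Paip1, which links poly(A) binding protein to eIF4A, rose by 1.30 ± 0.21, Mknk1, a kinase of eIF4E, by 1.29 ± 0.27, and Asns, a target of the stress response, by 1.25 ± 0.43 (SE), while Trib3 of the same response fell by 1.08 ± 0.38 (SE). Of each tissue's 6 libraries, 2 had Y-linked transcripts. The 6 epiblast markers summed to 158 to 245 FPKM in mKO, 133 to 179 FPKM in mHet and 175 to 206 FPKM in WT libraries of ExE. In epiblast they summed to 478 to 770 FPKM in mKO, 531 to 548 FPKM in mHet and 529 to 656 FPKM in WT libraries. Of these markers, 2 averaged 1 FPKM or more in mKO ExE, 3 in mHet ExE, and all 6 in WT ExE and in epiblast. Otx2 and Fgf5 were at 0 in every mKO ExE library. Visceral endoderm markers summed to 1.24 and 21.8 FPKM in the mKO ExE libraries and to at most 2.99 FPKM in the other ExE libraries. The part of these in the tissue differences was not tested.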

How the data were processed

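Polyadenylated RNA of mouse oocytes and embryos was made into Smart-seq2 libraries and read on the DNBSEQ-T7 system, per the labels' protocols. The deposited tables hold FPKM per gene and library, computed by the authors, per the labels. The submitters' processing notes name Trim Galore 0.4.2, HISAT2 2.2.1, HTSeq 0.6.0 and the builds mm9 and hg19, without roles. Not given in the sources used here: the FPKM tool, its annotation, and how multi-mapping reads and strand were handled. Depth is unknown. No single ratio between the low values of libraries recurred in more than 1.97% of genes, which leaves no value of 1 read to recover and no counting interval.

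Columns were matched to samples by title; the epiblast columns carry other numbers than the titles and were matched to their group alone. Gene names turned into dates (25, 27 and 27 in 3 tables) were dropped. Eif2c1 and other Eif2c symbols, present in 2 tables only, were not taken. Each table was analysed alone. A gene was kept where 2 or more libraries reached 1 FPKM, log2(FPKM + 1) was fitted with limma 3.58.1 in R 4.3.3 (group means of all libraries of the table, eBayes with a trend), and p-values, two-sided, were adjusted by Benjamini and Hochberg over all genes kept, with a threshold of 0.05. The fit was tested on simulated data. Where 1 library remained in a group, its spread was taken from the other groups.

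The genes, roles, partner list and tests were chosen with earlier results of these data known. Named genes are, per comparison, those past the threshold, up to 10 in each direction, or else up to 3 with the smallest p; by stage, the highest and lowest of each role, genes whose WT means differ by more than 8 times, and the eIF2, eIF4F and 4E-BP genes. The text names a selection of them, and Eif2s2 at E4.25, Eif4g3 and Eif5b were added after their values were seen. Alternatives were a pseudocount of 0.1, no filter, median ratio scaling, removal of Rn45s, the 2 groups alone, a replicate block, a library run or sex term, and each library left out. Upstream sequences are from RefSeq, GRCm38.p6.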

Additional observations from a re-analysis of the deposited data

How the results depend on the processing

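Of the alternatives for the counts of called initiation factor genes and the stage levels, 225 stayed within 1.5 times the reported count or the spread and 23 did not. In most comparisons the reported count was 0, so staying within it meant only that no calls appeared. E4.25 mKO against WT had 10 called. It had 3 with a pseudocount of 0.1, 1 with no filter and 16 with the replicate block. For these settings the share of all genes called was not recorded, while it was 14.6% in the reported fit. The same comparison had 0 with median ratio scaling and 0 with Rn45s removed, where 30 and 240 of all genes were called. Chosen after seeing the data were libraries 1 and 2 alone (1 called), libraries 3 and 4 alone (0) and WT libraries 3 and 4 left out (2). Leaving out 1 library at a time gave between 0 and 14 there, between 0 and 26 in mHet against WT of the first E3.5 table, between 0 and 33 in E6.5 ExE mHet against WT, between 5 and 27 in ExE against epiblast and between 0 and 14 in the difference of the mHet effect between tissues. The highest of these came without mKO replicate 3 at E4.25, without WT replicate 2 in the first E3.5 table, and without ExE mHet replicate 1 in the other 3. ExE against epiblast had 5 called, 11 with median ratio scaling, and 13 with mHet library 2 left out and median ratio scaling, an alternative chosen after seeing the data. The WT median over the 53 genes at E4.25 was 6.78 FPKM, and 11.8 FPKM with Rn45s removed. The cause of these shifts was not tested.

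The genes called at E4.25 were each called in only 5 (Eif3h) to 11 (Eif4a2) of 19 alternatives. Each gene called between the E6.5 tissues was called in all 18. Most other named genes were not called and had no threshold to lose. Counted over all named genes, direction and side of the threshold were kept under 759 alternatives, while the threshold was lost in 115 and gained in 8. In 4 the sign reversed: in FGO KO against WT, leaving out 1 library at a time gave log2 changes between -1.32 and 0.24 for Eif1a and between -1.27 and 0.22 for Eif4ebp1, positive without WT replicate 2. In FGO Het against WT it gave -0.26 to 1.87 for Eif2ak4, negative without Het replicate 2, and -0.11 to 0.52 for Eif1, negative without WT replicate 2. Pairing by replicate number was not shown. At E4.25 same-numbered mKO and WT libraries deviated together with correlations of 0.0586, 0.0875, 0.14 and 0.101, not all over 0.1, and in the second E3.5 table they ran from -0.406 to 0.701. The other tables checked have only 2 pairs per comparison, too few to decide. Correlations were 0.515 to 0.557 at PN5, 0.213 to 0.257 in late 2-cell embryos and 0.155 to 0.571 in the first E3.5 table. They were 0.71 in FGO Het, 0.588 and -0.332 in FGO KO libraries 1 and 2, and -0.174 and 0.303 at the 8-cell stage. In FGO KO the numbers set KO library 2, of run 1, beside WT library 2, of run 2. With the replicate block, 8-cell mKO against WT had 1 called, Eif4ebp1 at a log2 change of -1.94 (adjusted p = 0.000125; 0.999 without the block). In that fit mKO library 3 has no partner and does not enter the estimate, and the numbers set mKO library 2 beside a WT library of the other run. No paired analysis was possible for epiblast because its column numbers differ from those of the titles, and no block was fitted for ExE. By percentile rank within a library, tried for the stage levels, PN5 was the lowest WT group and not E4.25.

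Depth is unknown, and 2 libraries per group in most tables limit the precision. FPKM are shares, so a library with much Rn45s reads low in all other genes, and levels under 1 FPKM are compressed on the log2(FPKM + 1) scale.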
